A study of Zea mays with 12 samples.

Results

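A set of 66 maize genes had higher mean levels after blue light in both genotypes of the study, with a larger increase in the cryptochrome mutant stock zmcryq than in the inbred line B73. They were taken from 44303 gene IDs, of which 21472 reached a deposited value of 1 in at least 3 of the 12 libraries. The genes were chosen by their measured blue responses. A gene was kept when its response was at least 2 in zmcryq and at least 0.5 in B73, and when the response in zmcryq exceeded that in B73 by at least 1.25, a limit that 2.60% of tested genes met. All 3 limits are differences of group means on the log2(scaled FPKM + 1) scale. FPKM counts fragments per length of transcript and per size of the library, and scaled FPKM is the deposited value divided by a factor for its library, the median ratio of that library to the gene-wise geometric mean.

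Leaves of seedlings labelled 7 days old were sampled after growth in long-day white light and 48 h of darkness. The 4 groups of 3 libraries were zmcryq after 1 h of blue light, B73 after the same blue light, zmcryq kept in the dark and B73 kept in the dark. B73 is labelled as wild type. The labels do not say which cryptochrome genes zmcryq lacks, how it was made or in which line, so an effect of the mutations and one of another genetic background cannot be told apart. Nothing says that a group's libraries are from different plants, and the p-values measure only the spread between libraries, which may be technical.

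Cryptochromes are flavoproteins that absorb blue light. In Arabidopsis, the lit receptor binds the COP1/SPA ubiquitin ligase complex and blocks it, and transcription factors such as HY5 that the ligase would mark for degradation accumulate and switch on light-induced genes. Plants also sense blue light through phototropins and the ZEITLUPE family, and phytochromes absorb it weakly. Cryptochromes are known mainly as activators of the early blue response, which makes genes with a larger response in a cryptochrome mutant a separate class to describe. A larger response can come from a lower starting level in the dark, from a higher level under blue light, or from both, and the 66 genes were sorted by this.

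The files do not pair the deposited gene IDs with names, and 0 of them were found in the reference table, so genes are given by ID and have no function or position here. For the same reason, leaf markers, the cryptochrome genes and pathway lists were not analysed here. Totals ran from 588717 to 814802 FPKM per library, the scaling factors from 0.507 to 1.64, a 3.24-fold range, and the 20 most abundant genes took 10.1% to 39.4% of a library's total. The lowest factors were those of zmcryq dark replicate 1 and B73 blue replicate 2. Fragment counts behind the values are unknown. In whole leaves, fewer cells of a type and less RNA per cell cannot be told apart.

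The 66 genes were low in the dark and moderately abundant after blue light. Their group means had a median of 23.6 scaled FPKM in zmcryq blue (range 3.3 to 699), 6.92 in B73 blue (0.914 to 256), 1.52 in zmcryq dark (0 to 139) and 1.92 in B73 dark (0 to 113). The median over the 66 genes was 22.7 to 24.5 scaled FPKM in the zmcryq blue libraries and 5.49 to 7.97 in the B73 blue libraries. It was 1.11 to 1.81 in the zmcryq dark libraries and 1.49 to 1.88 in the B73 dark libraries. The libraries of the genotypes therefore stood apart in blue light and overlapped in the dark when the genes were summarised by a median.

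The responses chose the genes and are given as a description. Blue minus dark had a median of 2.95 in zmcryq (2.02 to 5.92) and 1.19 in B73 (0.51 to 3.64), and the response in zmcryq minus that in B73 had a median of 1.65 (1.28 to 3.35). Every zmcryq blue library lay above every zmcryq dark library in 66 of 66 genes, and the same held for B73 in 59. The limits that chose the genes largely set these counts. The shares over all tested genes were not computed, and nothing is read from the counts. As ratios of group means with no pseudocount, the median induction of the 63 genes above 0 in all 4 group means was 14.5-fold in zmcryq (4.27 to 243) and 2.92-fold in B73 (1.36 to 31.5). On that ratio scale 56 of the 63 still had a response difference of at least 1.25, and Zm00001eb165560 had the opposite order, with 21-fold induction in zmcryq and 31.5-fold in B73. For this gene, with a dark level in B73 close to 0, the order of the responses turned with the pseudocount.

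**Figure D1:**
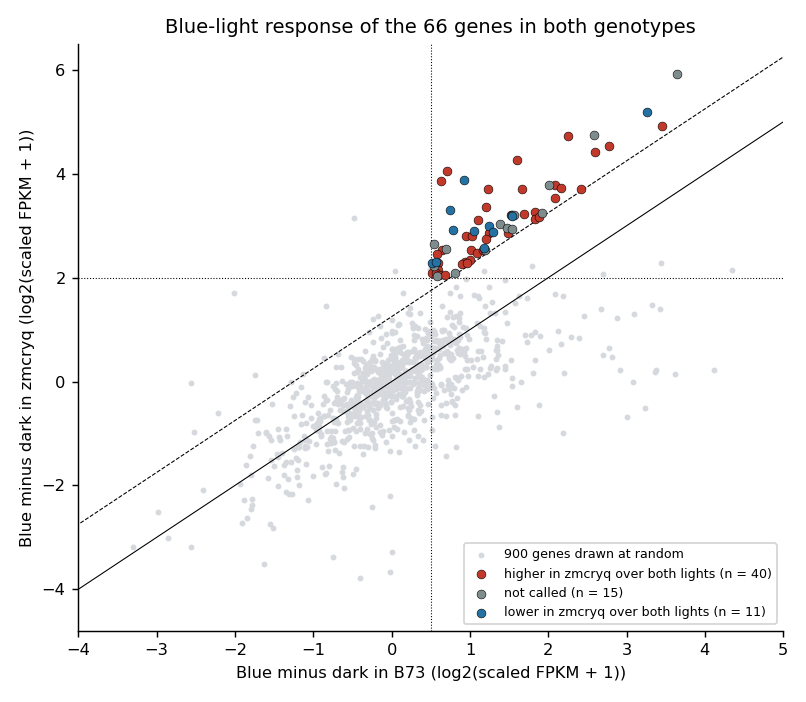
Blue minus dark in B73 (horizontal) against blue minus dark in zmcryq (vertical), both as differences of group means of log2(scaled FPKM + 1). Coloured points are the 66 genes, coloured by the test of the genotype difference over both lights, and grey points are 900 tested genes drawn at random, with points beyond the axes not drawn. The solid line marks equal responses, the dashed line a response difference of 1.25, and dotted lines the limits of 2 and 0.5. All 66 genes lie in the corner that the rule cuts out.

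Of the 221 genes that met both response limits, 66 also met the limit on the difference. The members closest to that limit differed by 1.28 and 1.29, and the nearest genes outside it by 1.23 and 1.19. The nearest values to the limit of 2 in zmcryq were 2.025 inside and 1.995 outside, and those to the limit of 0.5 in B73 were 0.509 inside and 0.495 outside. A further 50 genes met the other limits but responded by less than 0.5 in B73. With the genotypes exchanged, the same rule found 224 genes, and 139 genes met both response limits with responses less than 1.25 apart.

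On this scale, the gap between the responses lay mainly in a higher level of zmcryq under blue light for most of the 66 genes. For a smaller set it lay mainly in a lower level in the dark. A B73 dark level near the floor, described below, favours the first kind. The gap equals the genotype difference in blue light minus that in the dark, both zmcryq minus B73. In blue light 61 genes stood higher in zmcryq and 5 lower, with a median difference of 1.44 (range -1.56 to 3.07). In the dark 36 genes stood lower in zmcryq, 28 higher and 2 equal, with a median difference of -0.12 (-3.34 to 1.22). This median rested on single libraries: it became -0.02 or -0.28 when zmcryq dark replicate 1 or replicate 3 was left out, and -0.06 when B73 dark replicate 1 was. Both contributed in 31 genes, which were lower in the dark and higher in blue light. In 30 genes the dark level was not lower in zmcryq, and the whole gap lay under blue light. In the other 5, zmcryq was below B73 in both lights, and the deficit was larger in the dark.

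Expressed as a share of the gap, the dark difference made up over 75% in 11 genes, under 25% in 39 and an intermediate share in 16. Its median was 8.53%. In 24 genes all 3 zmcryq dark libraries lay below all 3 B73 dark libraries, beside 27.2% of all tested genes. In 53 genes all 3 zmcryq blue libraries lay above all 3 B73 blue libraries, beside 32.9% of tested genes. Both held in 14 genes, beside 1.72% of tested genes. These comparisons are parts of the contrast that chose the genes, and nothing is read from their excess.

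**Figure D2:**
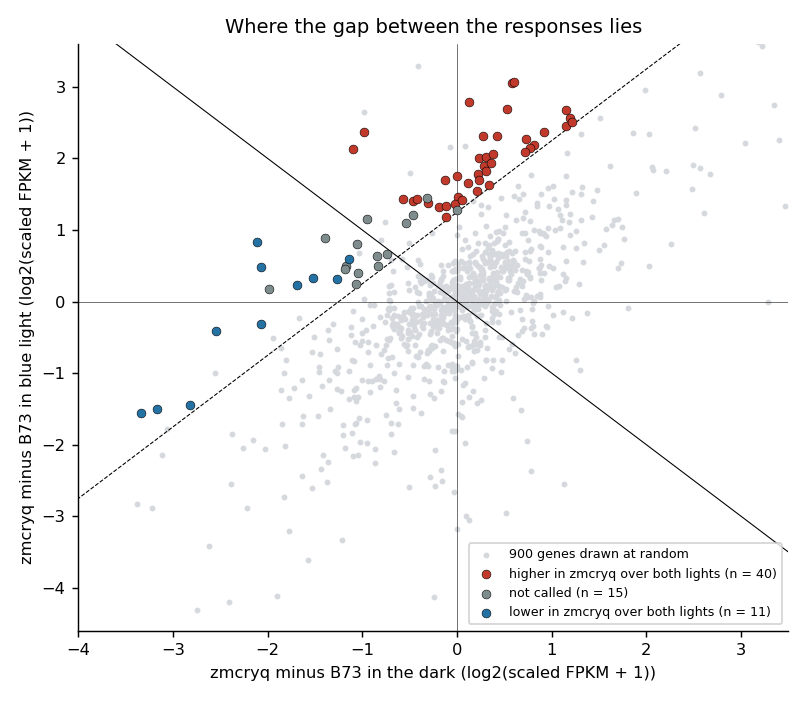
Genotype difference in the dark (horizontal) against genotype difference in blue light (vertical), zmcryq minus B73, in log2(scaled FPKM + 1). Coloured points are the 66 genes and grey points 900 tested genes drawn at random, with points beyond the axes not drawn. The dashed line is the limit of 1.25 on the gap. On the solid line the gap is split evenly between the lights: the 45 genes above it owe more of the gap to blue light, and the 21 below it owe more to the dark.

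The genotype difference averaged over both lights was not used by the rule, because in a design of 4 equal groups it is orthogonal to the blue response of either genotype. It is positive where the gap lies more in blue light and negative where it lies more in the dark. With limma across all 21472 tested genes and Benjamini-Hochberg adjustment, it was called (adjusted p under 0.05) higher in zmcryq for 40 of the 66 genes, beside 31.7% of tested genes, and lower for 11, beside 31.7% of tested genes. The other 15 were not called. The median was 0.62 over the 66 genes and 0.02 over all tested genes, and 21 of the 66 were below 0 (31.8%), beside 48.5% of tested genes. Among the 139 genes with responses of like size the median was -0.12 and 51.8% were below 0, and among the 224 genes with the stronger response in B73 it was -1.47 and 96% were below 0. No test was made between these gene sets. A dark level near 0 favours a positive difference in the 66 genes and a negative one in the 224. The shares are thus partly set by the choice of genes, although the contrast is orthogonal to the responses. Of the 66 genes, 5 would not have passed the expression filter without their zmcryq blue libraries. That favours a positive difference, and nothing is read from the calls of these 5.

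A floor limits this sorting. In 17 of the 66 genes the dark mean was under 1 scaled FPKM in both genotypes, and a lower dark level of zmcryq can then hardly show on this scale, so a positive value was largely set by the choice of genes. Of these 17, 0 had most of the gap in the dark, 15 were called higher, 0 were called lower and 2 were not called. The B73 dark mean was under 1 scaled FPKM in 24 of the 66 genes, and the same floor holds for each of them. The other 49 genes therefore still include some at this floor, all of them called higher. In these 49 genes, most of the gap lay in the dark in 21 (42.9%), a share that the floor lowers. Of these 49, 25 were called higher, 11 lower and 13 not, with a median of 0.47 over both lights. Their median genotype difference was 1.38 in blue light and -0.57 in the dark. Ratios of group means with no pseudocount, a scale added after the data were seen, put 22 of 63 genes on the dark side, beside 21 of 66 on the log2(scaled FPKM + 1) scale.

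The share of the gap that lay in the dark tended to be larger in genes of higher level. Among the 33 genes with the higher mean over all libraries, 17 had most of the gap in the dark, 9 were called lower and 15 higher over both lights. Among the 33 with the lower mean, 4 had most of the gap in the dark, 2 were called lower and 25 higher. The median dark difference was -0.98 in the upper group and 0.01 in the lower group. Across the 66 genes Spearman's rho between the mean level and the genotype difference over both lights was only -0.292. Between the B73 dark level and the dark share of the gap rho was 0.614, but the B73 dark level enters both of those measures. Both values are descriptions across genes. The part of the floor at 0 in these relations was not tested.

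The 40 genes called higher over both lights, the 15 not called and the 11 called lower differed in their levels. The 40 called higher had median group means of 22.7 scaled FPKM in zmcryq blue and 5.71 in B73 blue, and of 1.44 in zmcryq dark and 0.872 in B73 dark. Their genotype difference had a median of 1.97 in blue light (1.183 to 3.07) and 0.25 in the dark (-1.10 to 1.22). The 11 called lower had medians of 26.2 in zmcryq blue and 26.9 in B73 blue, and of 1.82 in zmcryq dark and 12.2 in B73 dark. Their genotype difference had a median of 0.23 in blue light (-1.56 to 0.83) and -2.07 in the dark (-3.34 to -1.14). These splits follow from how the genes were sorted. The 15 not called had medians of 56.3 in zmcryq blue and 19.6 in B73 blue, and of 1.59 in zmcryq dark and 4.76 in B73 dark. Their median differences were 0.66 in blue light and -0.96 in the dark.

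**Figure D3:**
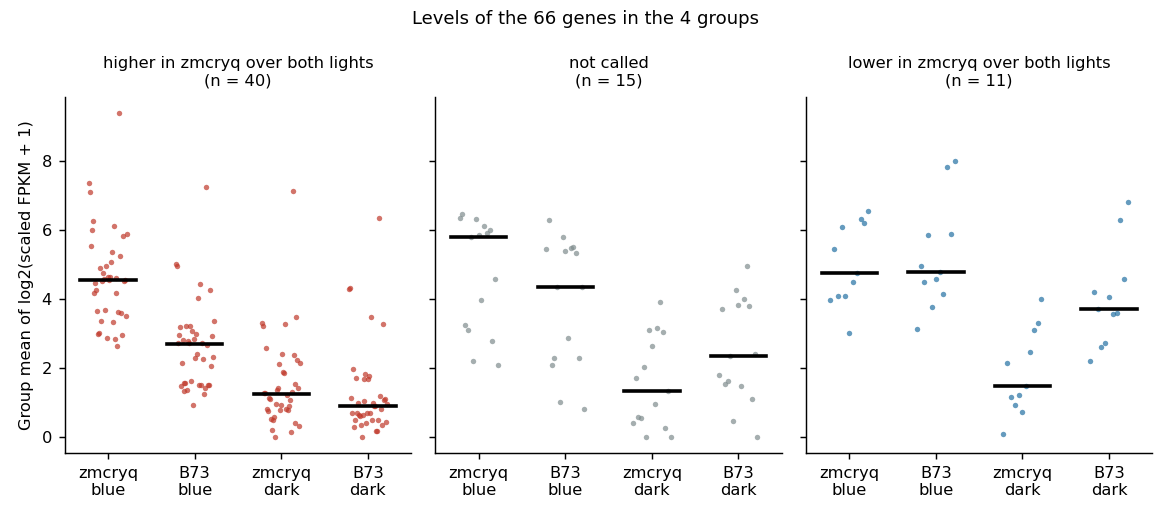
Group means of log2(scaled FPKM + 1) of the 66 genes in the 4 groups, 1 point per gene, with the median as a black bar, in panels by the limma call of the genotype difference over both lights. In the left panel the median bar is higher in zmcryq blue than in B73 blue, and the dark bars are closer together. In the right panel the blue bars are close together and the bar is lower in zmcryq dark than in B73 dark, while single genes depart from the medians in both panels.

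Zm00001eb304540 and Zm00001eb169520 had the largest response differences, and both had a lower dark level and a much higher blue level in zmcryq. Zm00001eb304540 was at 171, 171 and 155 scaled FPKM in zmcryq blue and at 26.9, 33.5 and 33.7 in B73 blue, and at 6.94, 11.3 and 9.16 in zmcryq dark and 20.2, 18.3 and 17.6 in B73 dark. The genotypes did not overlap in either light. The response was 4.06 in zmcryq and 0.71 in B73, an 18.1-fold induction of the mean against a 1.68-fold one. Of the gap of 3.35, 29.2% lay in the dark. The difference over both lights was 0.696 ± 0.105 (SE; limma adjusted p 0.000118).

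Zm00001eb169520 was at 139, 113 and 158 scaled FPKM in zmcryq blue and at 27, 30.2 and 33.2 in B73 blue, and at 8.61, 7.39 and 9.24 in zmcryq dark and 21.2, 15.6 and 20.9 in B73 dark. Again no zmcryq library fell among the B73 libraries of the same light. The response was 3.86 in zmcryq and 0.63 in B73, and 33.9% of the gap of 3.23 lay in the dark. The difference over both lights was 0.52 ± 0.11 (SE; limma adjusted p 0.00121). Without scaling between libraries, these genes were no longer called over both lights: the difference was 0.56 for Zm00001eb304540 (limma adjusted p 0.24) and 0.38 for Zm00001eb169520 (limma adjusted p 0.471).

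Zm00001eb168100 and Zm00001eb140530 were abundant genes that stayed below B73 in zmcryq in both lights. Zm00001eb168100 was at 80.9, 74.2 and 81 scaled FPKM in zmcryq blue and at 231, 218 and 227 in B73 blue, and at 8.36, 6.69 and 8.13 in zmcryq dark and 73.9, 71.8 and 86.3 in B73 dark. The zmcryq level after blue light was close to the B73 level in the dark. Induction of the mean was 10.2-fold in zmcryq and 2.92-fold in B73, and the difference over both lights was -2.34 ± 0.07 (SE; limma adjusted p 1.84e-10).

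Zm00001eb140530 was at 92.9, 84.3 and 104 scaled FPKM in zmcryq blue and at 253, 240 and 275 in B73 blue, and at 14.2, 14.9 and 15.7 in zmcryq dark and 94.4, 113 and 131 in B73 dark. It showed the same arrangement, with the dark libraries of zmcryq the lowest and the blue libraries of B73 the highest. Induction was 6.29-fold in zmcryq and 2.26-fold in B73, and the difference over both lights was -2.13 ± 0.09 (SE; limma adjusted p 2.26e-09). In these genes the stronger induction of zmcryq was thus a larger ratio on a lower level, and the dark difference (-3.17 and -2.83) was larger in size than the gap itself (1.66 and 1.39).

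Zm00001eb141540 had the lowest difference over both lights, -2.45 ± 0.35 (SE; limma adjusted p 0.000159), and a wide spread. It was at 10.1, 4.11 and 8.39 scaled FPKM in zmcryq blue and at 18.9, 17.7 and 35.9 in B73 blue, and at 0.335, 1.84 and 0.22 in zmcryq dark and 7.87, 27.3 and 18.1 in B73 dark. Its B73 libraries overlapped between the lights, and its B73 response of 0.51 was the closest to the limit of 0.5 inside it.

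In the other direction, Zm00001eb365790 and Zm00001eb264720 had the highest differences over both lights and were above B73 in zmcryq in the dark as well. Zm00001eb365790 was at 36.3, 28.6 and 34.5 scaled FPKM in zmcryq blue and at 7.24, 3.86 and 2.69 in B73 blue, and at 2.42, 2.46 and 3.05 in zmcryq dark and 1.14, 0.793 and 0.131 in B73 dark. The genotypes did not overlap in either light. The difference over both lights was 1.92 ± 0.201 (SE; limma adjusted p 7.07e-06).

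Zm00001eb264720 was at 39.1, 32.1 and 39.5 scaled FPKM in zmcryq blue and at 5.78, 3 and 8.65 in B73 blue, and at 3.98, 5.13 and 3.65 in zmcryq dark and 1.35, 1.1 and 1.43 in B73 dark. The lowest B73 blue library thus lay below all zmcryq dark libraries. The difference over both lights was 1.88 ± 0.18 (SE; limma adjusted p 3.19e-06). As linear ratios its induction was 8.67-fold in zmcryq and 4.49-fold in B73, against 12.5-fold and 6.67-fold for Zm00001eb365790.

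Zm00001eb407710 had the highest mean of the 66 genes. It was at 893, 460 and 745 scaled FPKM in zmcryq blue and at 131, 219 and 123 in B73 blue, and at 132, 134 and 151 in zmcryq dark and 113, 97.8 and 48.3 in B73 dark. The libraries of the genotypes stood apart in both lights, with zmcryq higher. The zmcryq dark libraries lay within the range of the B73 blue libraries (123 to 219). The B73 libraries ran without overlap between the lights, but the lowest of them in blue light, 123, was close to the highest in the dark, 113. Induction was 5.03-fold in zmcryq and 1.82-fold in B73, and the difference over both lights was 1.45 ± 0.24 (SE; limma adjusted p 0.000284).

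**Figure D4:**
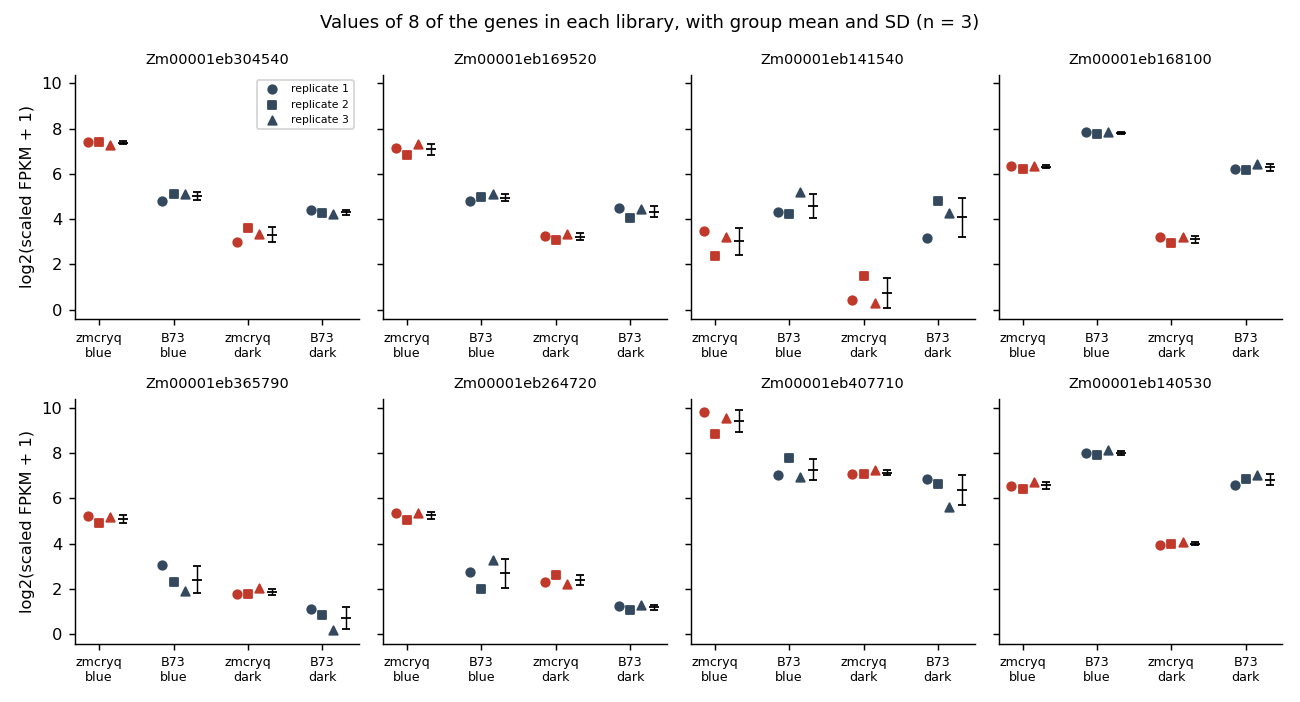
log2(scaled FPKM + 1) of 8 of the genes in each of the 12 libraries, zmcryq in red and B73 in dark blue, with symbols for the replicate number and the group mean ± SD (n = 3) beside them. Zm00001eb304540 and Zm00001eb169520 reach a higher blue level in zmcryq from a lower dark level. Zm00001eb168100 and Zm00001eb140530 stay lower in zmcryq in both lights, and Zm00001eb365790 and Zm00001eb264720 stay higher in both.

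Values at 0 limit a few of the genes. Of the 66, 7 had a deposited 0 in at least 1 library, and 12 reached 1 FPKM in no dark library of either genotype. Zm00001eb227310 and Zm00001eb369180, named here because of their zeros, were listed at 0 in all dark libraries of both genotypes, so that their gap lay wholly in blue light and no fold is given. Zm00001eb227310 was at 22.3, 22.6 and 21.2 scaled FPKM in zmcryq blue and at 3.11, 4.51 and 13.2 in B73 blue, without overlap. Zm00001eb369180 was at 2.88, 3.83 and 3.19 in zmcryq blue and at 0, 0 and 4.44 in B73 blue, so its B73 response came from 1 library and the genotypes overlapped. The same held for Zm00001eb309250, at 5.59, 10.5 and 0.335 in zmcryq blue and 4.86, 0 and 0.397 in B73 blue. Its B73 dark libraries were at 0, 0.42 and 0.866. A listed 0 may be a failed estimate rather than an absent transcript.

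Genes in 4 successive rows of the deposited table, from Zm00001eb165550 to Zm00001eb165580, were all members, and they were the only members in successive rows. They were at 16.6 to 69.7 scaled FPKM in the zmcryq blue libraries and 1.42 to 8.85 in the B73 blue libraries, and at 0.374 to 1.83 in the zmcryq dark libraries and 0.0692 to 1.52 in the B73 dark libraries. All 4 were called higher over both lights, by 0.98 to 1.82, and none had a lower dark mean in zmcryq (differences of 0.33 to 0.92). Across the 12 libraries their log2 values correlated at 0.947 to 0.992 in pairs, a description in which all pairs share the libraries and the light response. Of the rows on either side, 1 gene was not tested, with a highest value of 0.03 FPKM, and the other had a response difference of 0.69. How fragments shared between similar genes were counted is not stated in the labels or the file, and the 4 may not be separate measurements.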

How the data were processed

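Leaf RNA was measured in 12 libraries. The authors deposited 1 table with a value per gene and library, read here as FPKM, although neither header nor label gives the unit. Per the submitters' processing notes, which state no steps, the tools were Cufflinks (a program that reports FPKM), TopHat, Bowtie2, HISAT2 2.2.1.0, Trimmomatic 0.36 and DESeq 1.18.0. Genome build, annotation and strand use were not given in the sources used here. The 4 deposited columns of group means were not used.

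Tested genes had 1 FPKM or more in 3 or more libraries. Each library was divided by its median ratio to the geometric means of the 19555 tested genes above 0 in all libraries, which sets the median change near 0 by construction. limma 3.58.1 (R 4.3.3) fitted 4 group means to log2(scaled FPKM + 1) over the 12 libraries, with trended and robust moderation, 2-sided tests and Benjamini-Hochberg adjustment over all tested genes. Calls had an adjusted p under 0.05. This scale understates the change of low genes. The fit was tested on simulated data.

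The members, the scaling and the tests were chosen with earlier results of these data known. The genes named are the 2 with the largest response difference, the 2 lowest and 2 highest in the genotype difference over both lights and the 2 of highest mean. Zm00001eb165560, the genes at 0 and those in successive rows were named after their values were seen. Alternatives were other scalings, pseudocounts of 0.1 and 5, no filter, plain moderation, the replicate block and leaving out each library.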

Additional observations from a re-analysis of the deposited data

How the results depend on the processing

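The number of genes that the rule finds depended on the scale: it was 185 without scaling between libraries, 191 with a pseudocount of 0.1 and 26 with a pseudocount of 5, against 66, and 17 of the 66 were found under all 18 alternatives that could change the choice. It was 60 to 74 with single libraries left out. Without scaling, the test of the genotype difference over both lights put 2307 genes higher in zmcryq and 4003 lower, against 6807 and 6811 (6405 to 7159 and 6440 to 7166 with single libraries left out), and called 7 of the 66 genes lower, against 11. There the median of all tested genes was -0.11, and -0.38 in the dark and 0.17 in blue light. The causes were not tested.

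Of the 66 genes, 39 to 41 were called higher and 10 to 13 lower with single libraries left out, and 20 to 21 had most of the gap in the dark. Without scaling, 14 of the 51 calls among the 66 genes were lost and 1 was gained (31 higher). With a pseudocount of 0.1, 6 were lost and 5 gained (34 higher and 16 lower). No called gene of the 66 was called in the opposite direction under any alternative run, the added one without both libraries of lowest factor included (73 genes found, 57 of them among the 66). Replicate numbers are shared between groups, but after scaling libraries of the same number did not deviate together (18 correlations from -0.304 to 0.315, 4 of them over 0.1). The best match was the own number in 9 of 36 comparisons. Replicate 2 did have the lowest scaling factor in both blue groups (0.868 in zmcryq and 0.567 in B73). It also had their largest share in the 20 most abundant genes (33.6% and 34.6%). In neither dark group did replicate 2 have the lowest factor. With the replicate block, 51 of the 51 called genes were called in the same direction, and 1 more was called lower. Over all tested genes, 6763 were then called higher and 6762 lower.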
